A study of Mus musculus with 42 samples.

Results

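Dual-specificity phosphatases remove phosphate from both the tyrosine and the threonine of activated MAP kinases. The 7 genes described here are Dusp1, Dusp2, Dusp4, Dusp5, Dusp6, Dusp10 and Dusp16, taken as a fixed list from 54353 genes shared by the bulk tables and 35237 genes of the single-cell matrix. The list was chosen by the members' values in these libraries, with Dusp2 first because its level fell from virgin to pregnant mice, so its values against virgin mice are a description and were not tested, and the same was done for the other members. The members were followed in 34 bulk RNA-seq libraries of mouse uterine tissue-resident NK (trNK) cells, with 2 libraries per group, and in 1 pooled set of single uterine cells.

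The mice were females, 8 to 12 weeks old by the study's methods. The labels give them as wild-type C57BL/6 in the first 3 experiments described here and as wild type (WT) in the time course, and name no deletion or transgene in any group. The single cells are labelled as wild type too, from virgin mice and mice at gestation day 8.5, which were C57BL/6 by the study's methods. The first experiment held trNK cells of virgin mice and of mice at gestation day (gd) 6.5 and 8.5. The second held cells at gd8.5 split into trNK-V, trNK-D and trNK-T, labelled CB_low, CB_int and CB_hi and sorted for low, intermediate and high surface CD55 and 4-1BB. In the third, trNK cells were cultured for 3 days without IL-21 (ctrl), with 20 ng/mL IL-21 (IL21), or with IL-21 and 1 µM Stattic, an inhibitor of STAT3 (IL21_iSTAT3). The labels do not give the origin of the cells in this culture, which the study's text describes as trNK-V cells of gd6.5 mice. The Stattic dose is that of the labels, and the study's methods print it in another unit (mM), a disagreement that is not settled here. In the fourth, trNK cells of gd6.5 mice were kept in 10 ng/mL IL-15 with or without 20 ng/mL IL-21, with libraries labelled 0, 6, 24 and 72 h. The study's text describes these too as trNK-V cells. A protocol text in the labels gives a higher IL-15 dose for these libraries, which is not settled here. Nothing in the labels says that the libraries of a group came from separate animals or cultures, so p-values measure only the spread between these libraries, which may be technical.

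The trNK cells had been sorted as NK1.1+ NKp46+ CD49a+ CXCR6- cells, and cultured cells are a system outside the uterus that receives IL-15 throughout. Ncr1, which encodes NKp46, was between 46.8 and 1030 RPKM (read counts scaled to gene length and library size) in the 34 libraries, and Itga1, which encodes CD49a, was above 0 in each. Total counts were 11862089 to 66468883 per library. The fourth experiment was made with another amplification kit, so its levels are set beside those of the other experiments only as values. Plasma cell genes summed to 23160 RPKM in trNK-D replicate 2 and to at most 555.6 in the other libraries, and macrophage genes summed to between 230.3 and 316.5 RPKM in trNK-V replicate 2 and both trNK-D libraries.

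The family sorts by where its members act. Dusp1, Dusp2, Dusp4 and Dusp5 encode phosphatases of the nucleus that are made within minutes to hours of MAP kinase activation. Dusp6 encodes a cytoplasmic phosphatase with a strong preference for ERK, and Dusp10 and Dusp16 encode phosphatases that act mainly on p38 and JNK. Since several of these genes are themselves switched on by ERK signalling, they serve as both brakes and readouts of the pathway. In lymphocytes, Dusp2 (also called PAC-1) was first known as a gene induced by activation.

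The stretches around the start sites of Dusp2 and Dusp1, the members with the widest range of levels, are given here because their levels moved apart in the culture with the STAT3 inhibitor. The sequences are those of RefSeq on GRCm38.p6 (mm10), from 250 bases before to 50 after the start, for Dusp2 at chr2:127335909-127336208 on the plus strand and for Dusp1 at chr17:26508423-26508722 on the minus strand. Capitals mark a match on either strand to TGACGTCA, the cAMP response element.
Dusp2: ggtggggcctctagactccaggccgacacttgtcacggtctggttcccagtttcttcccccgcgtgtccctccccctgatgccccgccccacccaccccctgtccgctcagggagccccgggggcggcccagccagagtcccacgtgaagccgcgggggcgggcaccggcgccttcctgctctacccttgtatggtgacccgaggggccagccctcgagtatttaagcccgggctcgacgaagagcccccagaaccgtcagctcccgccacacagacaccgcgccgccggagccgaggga
Dusp1: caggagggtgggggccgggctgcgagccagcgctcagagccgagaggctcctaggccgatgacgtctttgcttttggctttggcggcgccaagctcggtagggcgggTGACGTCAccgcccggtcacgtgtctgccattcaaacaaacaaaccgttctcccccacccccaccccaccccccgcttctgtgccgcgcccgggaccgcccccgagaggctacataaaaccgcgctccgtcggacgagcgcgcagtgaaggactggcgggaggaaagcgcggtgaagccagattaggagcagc

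The Dusp1 match begins at position -143 from the start. Of 32851 mouse promoters of this length, 1.79% hold TGACGTCA. Further motifs were searched on both strands, TTCNNNGAA of STAT factors (8.3% of promoters), TGANTCA of AP-1 (7.81%), CCGGAAG of ETS factors (8.86%) and the NF-kB motif (0.155%). None of these occurs in the windows of Dusp1, Dusp2, Dusp5, Dusp6, Dusp10 or Dusp16, which says nothing of other stretches of these genes.

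The members differed in level. A gene entered the test if it exceeded 10 RPKM in both libraries of any group of an experiment. Dusp1, Dusp2, Dusp5 and Dusp6 did so in the gestation, subset and inhibitor experiments, and Dusp2 alone in the time course. Dusp4, Dusp10 and Dusp16 passed in none. Dusp10 stood between 4.69 and 6.51 RPKM in the gestation libraries, and Dusp16 never exceeded 1.17 RPKM in any library. Dusp4 reached 3.47 RPKM at most in cells taken directly from mice and had 0 counts in all 16 time course libraries.

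In virgin trNK cells Dusp2 measured 164 RPKM in replicate 1 and 137 RPKM in replicate 2. At gd6.5 it measured 21.6 and 17.2 RPKM, and at gd8.5 23.4 and 16.4 RPKM. Both virgin libraries lay above every library of pregnant mice, and the libraries of the days of pregnancy overlapped. These values chose the gene, and they correspond to log2 fold changes of -3.04 at gd6.5 and -2.98 at gd8.5. Several marker lists moved the same way without overlap. Summed over each list, NK genes were at 8838 and 7055 RPKM in the virgin libraries against 5543 to 6831 RPKM in those of pregnant mice, and trNK genes at 1241 and 1222 against 710.5 to 933.1 RPKM. Neutrophil and monocyte genes were at 359.3 and 218.1 against 131.0 to 189.6 RPKM, and conventional NK genes at 9.09 and 11.2 against 3.58 to 4.23 RPKM. Macrophage genes were at 10.1 and 6.05 against 1.66 to 5.597 RPKM, and mast cell genes at 7.22 and 12.6 against 0.880 to 3.27 RPKM. Gamma delta T cell genes lay the other way, at 21.8 and 12.7 against 28.5 to 40.9 RPKM. Single libraries also stood apart, with erythroid genes at 223.5 RPKM in virgin replicate 2 and 844.2 RPKM in gd8.5 replicate 2 and at most 12.8 RPKM in the other 4, and with genes of the terminal stage at 435.5 RPKM in virgin replicate 1 and 1785 RPKM in replicate 2. The part of these lists in the Dusp2 levels was not tested.

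Dusp5, an ERK phosphatase of the nucleus, measured 84.4 and 72.0 RPKM in virgin trNK, 48.8 and 25.1 RPKM at gd6.5, and 15.7 and 16.9 RPKM at gd8.5. Its libraries did not overlap between any of the stages, and the order ran from virgin to gd8.5 in steps of -1.17 and -1.16 on the log2 scale. The gd6.5 libraries were far apart, and the first step ranged from -1.74, without gd6.5 replicate 1, to -0.76 over the alternatives. Dusp1, the immediate early phosphatase of stress and growth signals, measured 247 and 169 RPKM in virgin trNK, 84.6 and 139 RPKM at gd6.5, and 94.0 and 88.9 RPKM at gd8.5. Its virgin libraries were the highest, and its gd6.5 and gd8.5 libraries overlapped.

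Dusp6 went another way. It measured 26.3 and 18.4 RPKM in virgin trNK, 29.8 and 33.8 RPKM at gd6.5 and 25.5 and 26.1 RPKM at gd8.5, which are log2 fold changes against virgin of 0.42 and 0.14. The gd6.5 libraries were above the others, as for 31.5% of genes against virgin, and the gd8.5 libraries lay within the virgin range. Dusp2, Dusp1 and Dusp5 thus had lower levels without overlap at both days, against 28.6% of all genes tested at gd6.5 and 22.7% at gd8.5 (such shares are counted on values scaled by TMM, edgeR's library normalization), and nothing is read from that count since the list was known from these libraries. The immediate early genes, which do not include the members, summed to 1437 and 1423 RPKM in virgin trNK, 726.1 and 1072 RPKM at gd6.5 and 863.6 and 770.7 RPKM at gd8.5. They were lower in pregnancy like Dusp1, Dusp2 and Dusp5 and unlike Dusp6 and Dusp10, and their part in these levels was not tested.

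**Figure D1:**
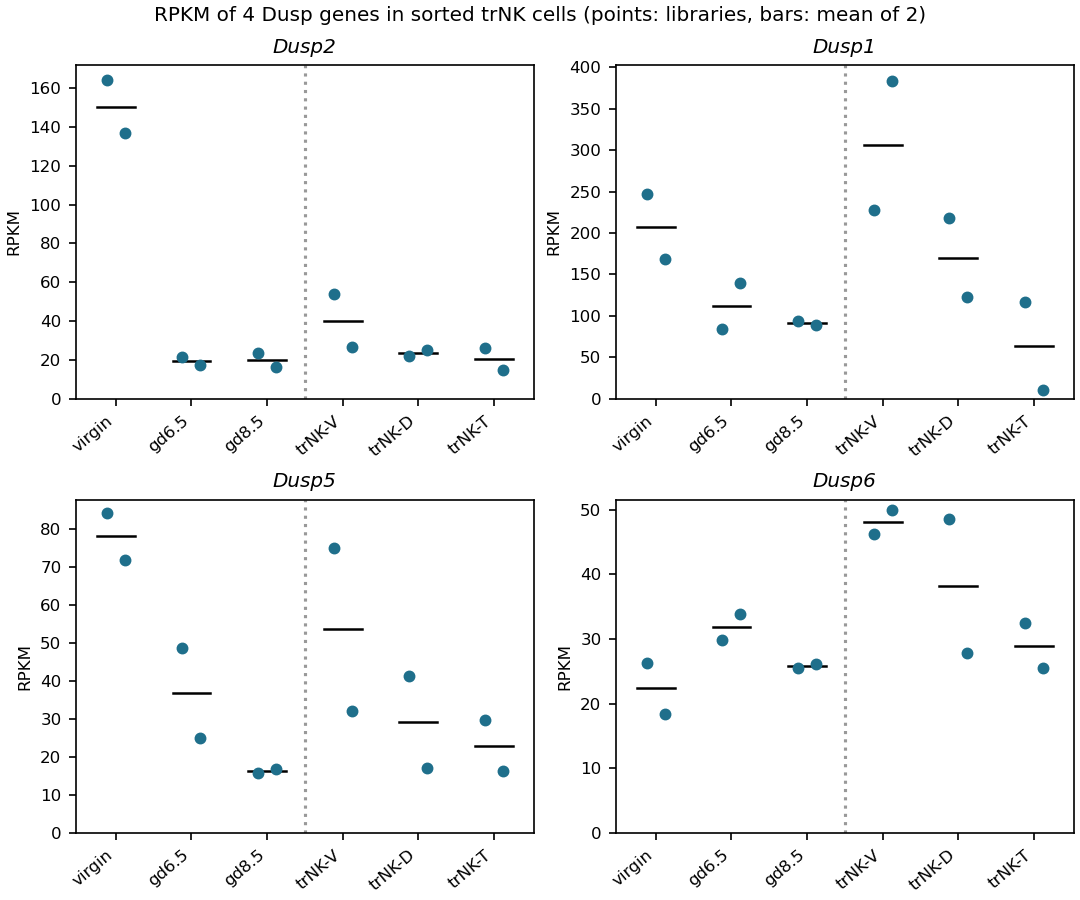
RPKM (linear axis from 0) of Dusp2, Dusp1, Dusp5 and Dusp6 in each library of sorted trNK cells, with gestation stages left of the dotted line and gd8.5 subsets right of it, points as libraries and bars as the mean of 2. Dusp2 is at 137 RPKM or above in virgin trNK and at 53.7 RPKM or below in every other library shown.

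From gd6.5 to gd8.5 edgeR called 0% of the 4504 genes tested, members included. A call required both a Benjamini-Hochberg adjusted p under 0.05 and more than a 2-fold difference. Of the members, Dusp5 was at an unadjusted p of 0.0106 in this comparison (difference -1.16 on the log2 scale, adjusted p = 0.12 by edgeR's quasi-likelihood test, standard error 0.33), and it was called by DESeq2 and not by limma-voom. At the unadjusted p, edgeR gave 1071 genes, and DESeq2 called 221 and limma-voom 0. Dusp5 and Dusp6 were lower at gd8.5 without overlap, as were 34% of genes. Dusp2 differed by 0.06 with a standard error of 0.24, less than the spread between libraries.

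Among the gd8.5 subsets, the levels of Dusp1, Dusp2, Dusp5 and Dusp6 were highest in trNK-V and lowest in trNK-T. Dusp1 measured 228 and 384 RPKM in trNK-V, 218 and 122 RPKM in trNK-D, and 117 and 10.2 RPKM in trNK-T. The libraries of each subset lay below those of the one before, and trNK-T replicate 2 was far under its partner. In that library the immediate early genes also summed to 247.1 RPKM, against 639 in trNK-T replicate 1, 844.4 and 1149 in trNK-D and 1878 and 2942 in trNK-V, and their part in the Dusp1 level was not tested. The 7 macrophage genes summed to 24.3 and 276.7 RPKM in the trNK-V replicates, 230.3 and 316.5 in trNK-D and 4.34 and 5.16 in trNK-T, and their part was not tested either. The 7 T cell genes summed to 164.6 and 175.7 RPKM in trNK-V, 58.8 and 88.8 in trNK-D and 31.9 and 28.0 in trNK-T, and the 5 ILC1 genes to 14.2 and 49.5, 10.6 and 18.5, and 0.307 and 0.222. The 4 trNK genes summed to 1379 and 1388 RPKM in trNK-V, 1173 and 978.7 in trNK-D and 799 and 644.5 in trNK-T, and the 5 genes listed for the virginal stage (Il21r, Il10rb, Cd27, Itgam and Tcf7) to 210.1 and 204.6, 135.2 and 79.6, and 33.2 and 17.4. That list was drawn from the study's account of its stages and is not independent of these libraries. The 5 NK genes summed to 8892 and 8053, 8426 and 5904, and 5573 and 4614 RPKM, and the stromal genes to 51.9 and 4.57, 4.78 and 2.11, and 0.513 and 0.680. By their group means these 6 lists, and those of conventional NK and gamma delta T cells, stood in the same order as the 4 members, and their part was not tested.

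Dusp2 measured 53.7 and 26.8 RPKM in trNK-V, 22.2 and 25.3 RPKM in trNK-D and 26.0 and 14.7 RPKM in trNK-T. The means were 40.3 ± 19.1, 23.7 ± 2.21 and 20.3 ± 8.05 RPKM (SD, n = 2), so the gaps between them were within the summed spread of the replicates. No library of the subsets came near the virgin level of Dusp2. Dusp5 measured 75.1 and 32.2 RPKM in trNK-V, 41.2 and 17.0 RPKM in trNK-D and 29.6 and 16.2 RPKM in trNK-T. Dusp6 measured 46.2 and 50.02 RPKM in trNK-V, 48.5 and 27.8 RPKM in trNK-D and 32.4 and 25.5 RPKM in trNK-T. For both genes only trNK-T and trNK-V did not overlap.

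Against trNK-V, edgeR gave trNK-T log2 fold changes of -2.26 for Dusp1 (standard error 0.96, adjusted p = 0.108), -0.98 for Dusp2 (0.41, 0.103), -1.22 for Dusp5 (0.55, 0.126) and -0.73 for Dusp6 (0.27, 0.0778). All 4 were lower without overlap, as were 38.3% of the 4683 genes tested, while edgeR called 21.2% of the genes and 0 of these members. Dusp2 and Dusp6 passed edgeR's unadjusted p, among 2255 of the 4683 genes that did, so nothing is read from this. DESeq2 called 0 members, limma-voom called Dusp1, and edgeR with a replicate block called Dusp5. Dusp10, below the RPKM filter, stood at 9.44 and 15.1 RPKM in trNK-V and 3.80 and 1.91 RPKM in trNK-T (log2 fold change -1.92, adjusted p = 0.0503 from edgeR with filterByExpr), and it was called when no filter was used. In trNK-D it measured 6.58 and 6.23 RPKM, between the other subsets. Dusp4, also below the filter, ran the other way. It had 0 counts in both trNK-V libraries and measured 0.0702 and 3.47 RPKM in trNK-D and 1.57 and 2.95 RPKM in trNK-T. For trNK-T against trNK-V its adjusted p was 0.087 from edgeR with filterByExpr, and it was called when no filter was used.

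Between trNK-D and trNK-V edgeR called 0.32% of genes, and between trNK-T and trNK-D 1.75%. It called 0 members in either and had 0 at an unadjusted p below 0.05, and DESeq2 and limma-voom also called 0. Dusp1 and Dusp2 were lower in trNK-D than in trNK-V without overlap, as were 27% of genes, and Dusp1 in trNK-T than in trNK-D, as were 30%. Dusp1 had log2 fold changes of -0.84 (standard error 0.93) and -1.42 (0.94) in these comparisons, and Dusp2 of -0.75 (0.41) and -0.23 (0.41). These comparisons share libraries and are not independent. In a bulk sample, fewer cells of a type and less RNA per cell cannot be told apart.

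Other genes of the ERK pathway were taken from lists of 22 targets and feedback regulators (21 of them in the tables), 54 kinases and small GTPase regulators, and 25 other dual-specificity and related phosphatases. In trNK-T against trNK-V, 7, 19 and 4 of these were tested. Of the targets, edgeR called 1 higher and 2 lower, of the kinases and regulators 0 higher and 4 lower, and of the other phosphatases 0. Of all genes, 8.05% were called higher and 13.1% lower. The median log2 fold changes of the lists were -0.90, -0.29 and 0.18, against -0.014 over all genes.

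Egr1, a transcription factor made at once when ERK is active, measured 52.7 and 60.5 RPKM in trNK-V, 25.9 and 22.3 RPKM in trNK-D and 15.4 and 3.91 RPKM in trNK-T. It fell in trNK-T by 2.54 on the log2 scale against trNK-V (edgeR adjusted p = 0.0172, standard error 0.56). Spry2, an inhibitor of the pathway that ERK signalling itself induces, measured 49.2 and 41.7 RPKM in trNK-V, 31.7 and 19.1 RPKM in trNK-D and 15.7 and 5.86 RPKM in trNK-T. It fell by 2.07 between trNK-V and trNK-T (edgeR adjusted p = 0.0205, standard error 0.49). For both genes the subsets did not overlap and stood in the same order as Dusp1.

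Map3k8, a kinase upstream of ERK, fell by 2.26 (edgeR adjusted p = 0.00397, standard error 0.27) and Rasal3, a Ras inactivator of lymphocytes, by 2.19 (edgeR adjusted p = 0.0013, standard error 0.17). Rasa1, also a Ras inactivator, fell by 1.46, and Rasgrp1, a Ras activator, by 1.10. The fallen genes therefore include both activators and inhibitors of Ras. Ier3, a stress-induced gene listed as an ERK target, had 0 counts in both trNK-V libraries and measured 17.4 and 10.2 RPKM in trNK-T (adjusted p = 0.00408 from edgeR). With 3 counts taken per trNK-V library it was 76.4-fold higher, a bound that covers counting error only. Absent from trNK-V, Ier3 could pass the RPKM filter only through trNK-D or trNK-T. Its entry into the test may thus depend on the difference tested, and the call is not given as support. Spry1, Spred1, Spred2 and Etv5 did not pass the filter in any experiment.

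In the 72 h culture, Dusp2 measured 20.4 and 18.9 RPKM without IL-21, 6.51 and 6.15 RPKM with IL-21, and 2.15 and 0.469 RPKM with IL-21 and Stattic. The groups did not overlap, as for 20.6% of genes lower in IL21 than in ctrl, 23.5% lower in IL21_iSTAT3 than in IL21 and 26.1% lower than in ctrl, and the means lay apart by more than the summed spread of the replicates. The lowest value, of IL21_iSTAT3 replicate 2, rests on 18 counts.

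Dusp2 fell in IL21_iSTAT3 against ctrl by 3.61 on the log2 scale (edgeR adjusted p = 0.0372, standard error 0.76). In this culture Dusp2 passed the RPKM filter only through ctrl, the group where it was highest, so its entry into the test depended on the difference tested and the call is not given as support. It was the 1 of 4 tested members called in this comparison, where edgeR called 4.74% of the 4158 genes, 1.8% as lower. It was not called with the filterByExpr limits on low counts (edgeR adjusted p = 0.149), with a replicate block, or without ctrl replicate 1, ctrl replicate 2 or IL21_iSTAT3 replicate 2, and DESeq2 and limma-voom called it. Against IL21 the log2 fold change was -2.16 (edgeR adjusted p = 0.157, standard error 0.72), and IL21 against ctrl gave -1.45 (edgeR adjusted p = 0.614, standard error 0.69). EdgeR called 2.96% of genes in the former and 0.289% in the latter comparison, with 0 members. Dusp1 and Dusp2 passed edgeR's unadjusted p in the former, among 824 of the 4158 genes that did. There DESeq2 called Dusp1 and Dusp2, and limma-voom called 0 members. In the latter neither passed by edgeR, while DESeq2 and limma-voom had Dusp2 at an unadjusted p below 0.05 and called 0 members. The 3 comparisons share their libraries.

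Dusp1 was highest in the Stattic libraries, where Dusp2 was lowest, and its libraries overlapped between ctrl and IL21. It measured 1.25 and 6.49 RPKM without IL-21, 1.25 and 9.60 RPKM with IL-21, and 34.1 and 30.1 RPKM with IL-21 and Stattic. Both Stattic libraries were above all others of this culture, yet below every library of the gestation and subset experiments except trNK-T replicate 2. The log2 fold changes were 3.33 against ctrl (edgeR adjusted p = 0.113, standard error 1.03) and 2.70 against IL21 (edgeR adjusted p = 0.2, standard error 1.01), with the groups apart as for 24.9% and 23.2% of genes in that direction. Dusp1 passed the RPKM filter of this culture only through IL21_iSTAT3, where it was highest, so these tests and calls of Dusp1 carry the same limit as those of Dusp2.

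Dusp5 stayed between 7.46 and 14.3 RPKM in this culture. Its highest values were under Stattic, above all other libraries, as for 24.9% of genes against ctrl and 23.2% against IL21. Dusp5 passed the RPKM filter of this culture only through IL21_iSTAT3, so its tests carry the same limit. Between IL21 and ctrl its libraries overlapped in RPKM and not on the TMM scale, where 17.6% of genes were higher without overlap. Dusp6 spread from 11.4 to 47.5 RPKM with all groups overlapping. Dusp4 had 0 counts without Stattic and measured 6.49 and 0.171 RPKM with it, 525 and 9 counts, so its presence there rests mainly on replicate 1.

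Several gene groups stood apart in the same Stattic libraries. Heat shock genes summed to 6960 and 7487 RPKM with Stattic and to between 722.6 and 944.8 RPKM in the other 4 libraries. Immediate early genes summed to 727.3 and 647 RPKM with Stattic, against 234.5 to 481.4. The 5 NK cell marker genes summed to 2595 and 2896 RPKM with Stattic, against 5056 to 6700. Ncr1 measured 46.8 and 77.3 RPKM with Stattic, 146 and 156 with IL-21, and 473 and 358 without, the same order as Dusp2. Neutrophil and monocyte genes stood in that order too, at 351 and 418.5 RPKM in ctrl, 221.5 and 254.1 in IL21 and 198.2 and 194 with Stattic, as did trNK genes, at 1099 and 965.9, 313 and 366.9, and 227.7 and 234 RPKM. Dividing cell genes summed to 81.7 and 49.6 RPKM with Stattic against 128.8 to 200.4 RPKM, and genes of the terminal stage to 204.2 and 285.9 against 460.8 to 773.8 RPKM. T cell genes overlapped between the groups, at 62.9 to 149.6 RPKM. The part of these shifts in the levels of Dusp1 and Dusp2 was not tested. B cell and macrophage genes were at or near 0 in all 6 libraries, at most 1.7 and 0.1 RPKM summed.

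**Figure D2:**
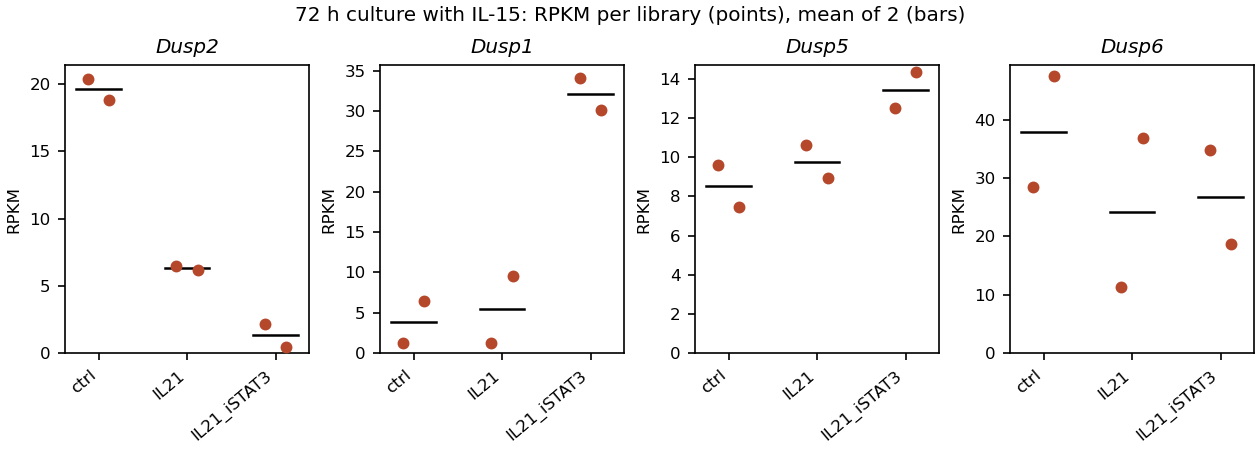
RPKM (linear axis from 0) of Dusp2, Dusp1, Dusp5 and Dusp6 in the 72 h culture, points as libraries and bars as the mean of 2 in ctrl, IL21 and IL21_iSTAT3. Dusp2 steps down from 18.9 RPKM or above to 2.15 or below, while Dusp1 is at 30.1 RPKM or above only with Stattic.

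Of the pathway lists, edgeR called only targets in this culture. Rgs1, which shortens G protein signals, measured 27.5 and 25.3 RPKM without IL-21, 8.42 and 13.6 RPKM with IL-21 and 114 and 153 RPKM with Stattic. It rose with Stattic by 3.72 on the log2 scale against IL21 (edgeR adjusted p = 0.00651, standard error 0.36) and by 2.63 against ctrl (edgeR adjusted p = 0.00876, standard error 0.34). Ier3 measured 6.76 and 6.36 RPKM without IL-21, 57.5 and 45.8 RPKM with IL-21, and 43.8 and 19.2 RPKM with Stattic. It rose in IL21_iSTAT3 against ctrl by 2.55 (edgeR adjusted p = 0.0366, standard error 0.53). Of the other lists, 2 phosphatases and 19 kinases and regulators were tested and 0 called in any of the 3 comparisons.

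In the time course, Dusp2 was the only member above the filter. Without IL-21 it measured 14.2 and 7.38 RPKM at 0 h, 25.9 and 14.1 at 6 h, 3.38 and 13.0 at 24 h, and 20.9 and 7.96 at 72 h. With IL-21 it measured 14.1 and 17.5 RPKM at 0 h, 8.09 and 13.6 at 6 h, 10.9 and 6.39 at 24 h, and 16.9 and 9.94 at 72 h. Replicates lay farthest apart in RPKM at 72 and 6 h without IL-21, and in the order of means every neighbouring pair of groups overlapped.

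The log2 fold changes of Dusp2 with IL-21 were -0.91 at 6 h (edgeR adjusted p = 0.73, standard error 0.66), -0.03 at 24 h (0.65, adjusted p = 0.996) and -0.17 at 72 h (0.65, adjusted p = 0.91). At 6 h both IL-21 libraries were below both others, as for 29.8% of genes, and at 24 and 72 h the groups overlapped. The difference of the IL-21 effect between times was 0.88 for 24 h against 6 h (standard error 0.93) and -0.14 for 72 h against 24 h (0.92), below the spread. EdgeR called 1.97%, 1.66% and 8.08% of 3503 genes for IL-21 at 6, 24 and 72 h, and 0 members. Dusp2 was not at an unadjusted p below 0.05 in these comparisons by edgeR, DESeq2 or limma-voom. For the differences between times, edgeR called 0% of genes for 24 h against 6 h, 4.22% for 72 h against 24 h and 4.17% for 72 h against 6 h, and 0 members.

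Over time without IL-21, Dusp2 shifted by 0.82 from 0 to 6 h (standard error 0.66), by -1.14 from 6 to 24 h (0.66) and by 1.12 from 24 to 72 h (0.66), and with IL-21 by 0.98 from 24 to 72 h (0.66). None of these was called by edgeR, DESeq2 or limma-voom, where edgeR called 0%, 0.0856%, 14.8% and 14.8% of all genes, and limma-voom alone had Dusp2 at an unadjusted p below 0.05, from 6 to 24 h. The Dusp2 libraries did not overlap from 6 to 24 h without IL-21, as for 24.7% of genes in that direction. From 24 to 72 h with IL-21 they overlapped in RPKM and not on the TMM scale, where 30.1% of genes were higher without overlap.

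The remaining members were weak in these libraries. Dusp1 had 0 counts in 0 h replicate 1, both 72 h libraries without IL-21 and 72 h replicate 1 with IL-21, and was highest at 6 h, at 6.33 and 4.03 RPKM without and 3.21 and 7.37 RPKM with IL-21. Dusp6 was between 0.973 and 9.03 RPKM, and at 72 h stood at 4.79 and 8.12 RPKM without and 2.27 and 0.973 RPKM with IL-21. Dusp5 was between 0.453 and 5.04 RPKM. Spry2, by contrast, was at 27.7 RPKM or above in all 16 libraries and rose with IL-21 at 72 h by 1.24 on the log2 scale (edgeR adjusted p = 0.0259, standard error 0.30), from 50.1 and 27.7 to 134 and 63.4 RPKM. A fit of the 72 h libraries alone called 0 of 3503 genes for IL-21.

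**Figure D3:**
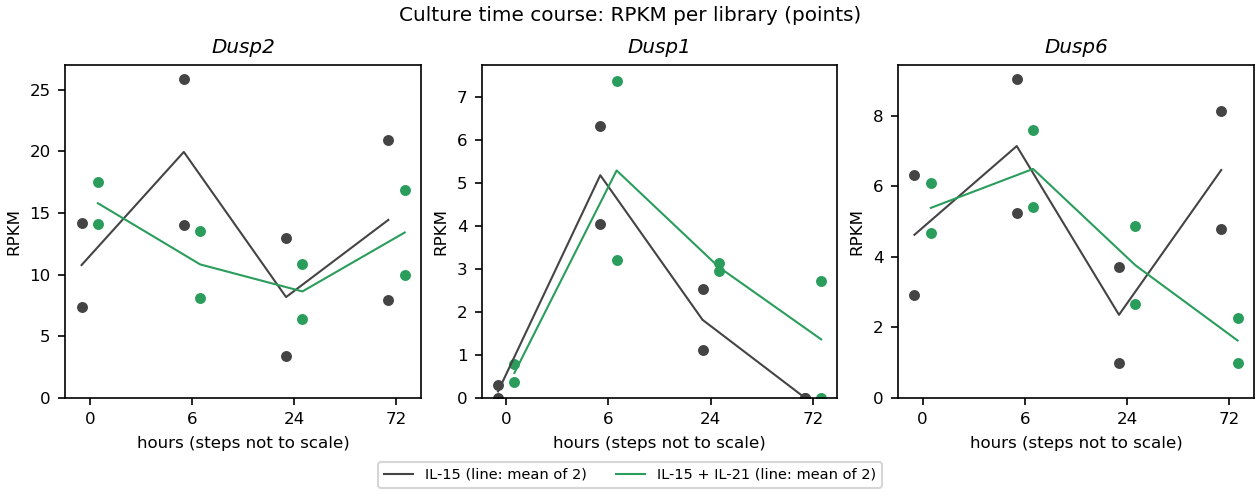
RPKM (linear axis from 0) of Dusp2, Dusp1 and Dusp6 against the labelled time in hours (steps not to scale), in IL-15 alone (grey) or with IL-21 (green), points as libraries and lines through the means of 2. Dusp2 spans 3.38 to 25.9 RPKM, and Dusp1 is highest at 6 h, where it reaches at most 7.37 RPKM.

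Dusp19, of the other phosphatases, was the 1 of its list tested in the time course. It measured 6.24 and 3.71 RPKM at 72 h without IL-21 and 14.2 and 13.3 RPKM with it, and rose by 1.43 (edgeR adjusted p = 0.0299, standard error 0.35). At 6 h it measured 14.3 and 12.1 RPKM without and 8.54 and 6.66 RPKM with IL-21. Among 5 tested targets, IL-21 at 6 h lowered Rgs2 by a log2 fold change of -1.62 and Rgs1 by -1.37 (adjusted p of 0.0121 and 0.0204 from edgeR), while at 72 h Rgs1 fell by 1.09. Ier3 had 0 counts in both 72 h libraries without IL-21 and measured 5.73 and 1.98 RPKM with it. With 3 counts taken per library without IL-21 it was 49.3-fold higher, a bound that covers counting error and not the spread between libraries. From 24 to 72 h, Rgs1 rose without IL-21 by 1.34 and with it by 1.23, Rasa1 by 1.58 and 1.49, and Rgs2 without IL-21 by 1.02. Myc fell from 24 to 72 h with IL-21 by 1.899. Without IL-21, Ier3 measured 3.18 and 1.94 RPKM at 24 h and had 0 counts at 72 h. With 3 counts again taken per 72 h library, it was 32.7-fold lower there. A fit of the compared groups alone called 0 of 3503 genes for IL-21 at 72 h, against 283 in the main fit. From 24 to 72 h it called 3 without IL-21 and 68 with it, against 518 in each main fit. The 72 h libraries without IL-21, where Ier3 and Dusp1 had 0 counts, had 8.44% and 11.8% of counts in mitochondrial genes and 10724 and 11665 genes detected, against 4.76% and 4.58% and 13340 and 14229 at 24 h, and the part of this was not tested. The dividing cell genes summed to at most 90.8 RPKM in the 72 h libraries and at least 289.5 RPKM in the other time course libraries, and their part in these changes was not tested.

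Over the 34 libraries, after the mean of each experiment was subtracted from log2(RPKM + 1), the genes whose pattern was most like that of Dusp2 among 2661 genes were Mitd1 (Pearson's r 0.732), Ncr1 (0.673), Trbj1-1 (0.665), I730030J21Rik (0.655) and Lamp1 (0.654). For Dusp1 they were Ube2j1 (0.699) and Ier2 (0.692), for Dusp5 Ppp3cc (0.673) and Glud1 (0.589), for Dusp6 Sf3b2 (0.715) and Eif1b (0.682), and for Dusp10 H2-Q7 (0.702) and H2-K1 (0.688). For the weakly detected members they were Tmem33 (0.566) and Ubxn2a (0.528) for Dusp4, and Gstp-ps (0.586) and Fbxo6 (0.545) for Dusp16. Between members, r was highest for Dusp6 and Dusp10 (0.553) and was -0.0625 for Dusp1 and Dusp2. The libraries of a group share their treatment and preparation, and the virgin libraries whose values chose Dusp2 are among the 34, so these values are descriptions.

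The single cells were sorted as CD45+ NK1.1+ NKp46+ cells of virgin and gd8.5 uteri and captured together. The files labelled for each condition hold different genes of the same 15175 cells and no condition per cell, so the cells are 1 sample without a comparison of conditions or a test. The 8907 cells with more than 200 and fewer than 2500 genes and under 10% mitochondrial UMIs were clustered without the members. Levels are summed UMIs scaled to library size (CPM, as RPKM without the length), with exact 95% Poisson intervals that cover counting error only. Doublets were not removed.

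Of the 13 clusters, 3 with 2639 cells were trNK-like and 1 with 1080 cells cNK-like (conventional NK cells). In spite of the sort, there were also 1169 macrophage-like, 291 B-like, 248 T-like, 205 stromal-like and 87 erythroid-like cells, and 4 clusters stayed unnamed. The largest unnamed, cluster 7 with 1666 cells, had the trNK markers above the B-like level, but was led by Cox6a2, Tcrg-C4, Xcl1 and Cxcr6, of which Cxcr6 marks ILC1 and was gated out of the bulk trNK cells. Over all cells Dusp2 was the highest at 655 CPM (645 to 664), then Dusp1 at 351, Dusp5 at 229, Dusp6 at 124, Dusp10 at 11.3, Dusp16 at 9.05 and Dusp4 at 2.92 CPM.

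Dusp2 was highest in cNK-like cells at 1193 CPM (1146 to 1241) and measured 756 CPM (739 to 772) in trNK-like cells. The B-like cells lay between them at 874 CPM, macrophage-like cells were at 416, T-like cells at 413 and stromal-like cells lowest at 140 CPM (110 to 175). These levels are shares of all UMIs, and depth differed, with a median of 1733 UMIs in cNK-like and 3946 in trNK-like cells. By the share of cells with a Dusp2 UMI the order was the other way, at 71.2% of cNK-like and 75.5% of trNK-like cells. Immediate early genes summed to 11662 CPM in cNK-like and 5311 CPM in trNK-like cells, and their part was not tested. The erythroid-like cells, which should lack the gene, held Dusp2 at 379 CPM (305 to 466) and NK marker genes at 1542 CPM summed. Free RNA can give such UMIs, so the Dusp2 levels of macrophage-like, T-like and stromal-like cells are not read as expression. Dusp1 was at 1119 CPM in macrophage-like, 492 in cNK-like and 143 CPM in trNK-like cells. The trNK-like level of Dusp1 depended on the cells kept, at 229 CPM with the limits read as UMIs and 71.2 CPM with no upper limit, against 552 and 491 CPM in cNK-like cells. Dusp6 was at 256 CPM in macrophage-like and 103 CPM in trNK-like cells. The macrophage-like cells were the highest named class for Dusp1 and Dusp6 in this clustering but not in those that named a neutrophil and monocyte-like class, which at a resolution of 0.4 held Dusp1 at 1172 CPM against 1088 and Dusp6 at 356 CPM against 234. Dusp5 was at 446 CPM in cNK-like, 201 in trNK-like and 113 in macrophage-like cells. With the limits read as UMIs, Dusp5 was at 438 CPM in cNK-like and 387 CPM in trNK-like cells. The erythroid-like cells of the main clustering held Dusp1 at 131 CPM (88.7 to 185), Dusp5 at 71.6 CPM (41.7 to 115) and Dusp6 at 42.1 CPM (20.2 to 77.5). The trNK-like level of Dusp1 and the macrophage-like level of Dusp5 lay within these intervals. The trNK-like clusters 9, 2 and 3 held Dusp1 at 530, 85.2 and 28.5 CPM. Cluster 3 thus lay below the erythroid-like interval, which is not a floor. With the limits read as UMIs, the erythroid-like cells held Dusp1 at 0 CPM (0 to 32.9) and Dusp5 at 44.6 CPM (14.5 to 104). How much of a level within these intervals is free RNA was not tested.

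The clusters with trNK markers differed among themselves. The unnamed cluster 7 held Dusp5 at 441 CPM (421 to 461) and Dusp1 at 333 (316 to 351). Cluster 3 (872 cells, led by Gzmf, Gzme and Gzmd) held Dusp5 at 154 (142 to 166) and Dusp1 at 28.5 CPM (23.7 to 34.05). Cluster 2, led by cell division genes, lay between them for both. Dusp2 was nearly level over these, at 667, 677 and 694 CPM.

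Cluster 9 (763 cells, led by Cited4 and the heat shock genes Hspb1 and Hspa1b) was highest among trNK-like clusters for Dusp2 at 1073 CPM (1026 to 1120), Dusp1 at 530 and Dusp6 at 195 CPM. This cluster, where the ILC1 marker Cxcr6 also stood out, supplied 1008 of the 1498 Dusp1 UMIs of the trNK-like cells. Of their 7931 Dusp2 UMIs it supplied 2039. It also held the most immediate early and heat shock UMIs of these clusters, at 15609 and 11944 CPM summed, against 2597 and 3466 CPM and 4405 and 5017 CPM in clusters 3 and 2. An unnamed cluster of 779 cells led by Mt2, Scin, Ctsg and Epas1 had the lowest Dusp1 of all clusters, at 10.2 CPM (7.39 to 13.7), with Dusp2 at 419, Dusp5 at 109 and immediate early genes at 1713 CPM. Its Dusp2 and Dusp5 levels lay within the intervals of the erythroid-like cells, and how much of them is free RNA was not tested. Dusp10 was highest in T-like cells at 49.0 CPM (31.7 to 72.3), and Dusp16 at 64.7 CPM (52.1 to 79.3) in an unnamed cluster of 528 cells led by Cd209a, Ace and Ccl22.

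**Figure D4:**
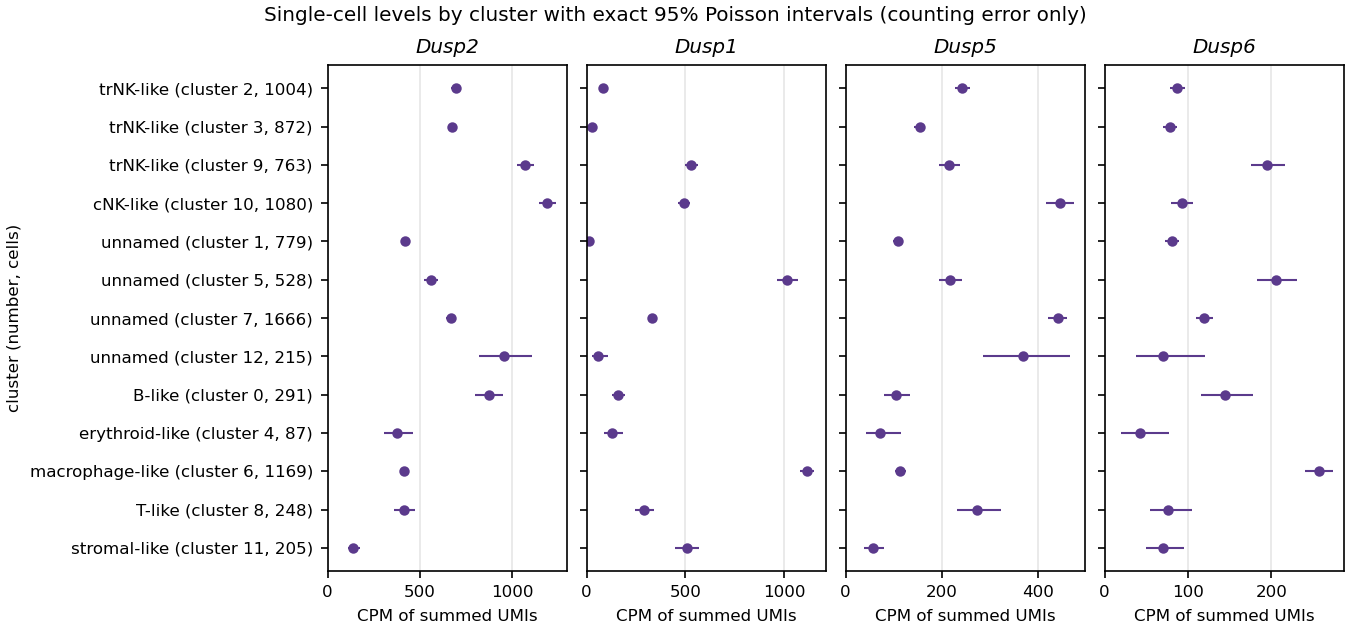
CPM of summed UMIs (linear axis from 0) of Dusp2, Dusp1, Dusp5 and Dusp6 in the 13 single-cell clusters, each with its class, number and cell count, and bars as exact 95% Poisson intervals. Dusp2 peaks in the cNK-like cluster at 1193 CPM and in trNK-like cluster 9 at 1073 CPM, and Dusp1 in the macrophage-like cluster at 1119 CPM.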

How the data were processed

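The authors aligned the bulk reads to mm10 with HISAT2 2.1.0 and deposited raw counts per gene with gene lengths. The submitters' processing notes name featureCounts and the methods name RSEM. The single-cell values the authors deposited are UMI counts from the BD Rhapsody pipeline, unnormalized and on GRCm39.

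RPKM were computed from counts and lengths over 54353 shared genes. Each experiment was fitted once with edgeR 4.0.16 (TMM, quasi-likelihood test, no covariates) in R 4.3.3 on genes for which some group had both libraries over 10 RPKM. P-values were adjusted by Benjamini-Hochberg, and a call needed an adjusted p under 0.05 with more than a 2-fold difference. The numbers tested were 4504, 4683, 4158 and 3503, and the common biological coefficients of variation 0.254, 0.248, 0.359 and 0.414 (gestation, subsets, inhibitor, time course), so replicate spread set the precision. DESeq2 1.42.0, limma 3.58.1, other filters and scaling, a replicate block and each library left out were alternatives. The fits were tested on simulated data.

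Single cells were clustered with scanpy 1.11.5 (2000 variable genes, 20 components, 20 neighbours, Leiden resolution 0.8) and named from marker lists. To count, a marker had to exceed the remaining cells 3-fold, with 10 or more UMIs, and be in 5% or more of the cluster's cells, and trNK-like clusters needed Itga1 and 3 or more of Ncr1, Klrb1c, Eomes and Itga1 at 2-fold above B-like cells, and stayed unnamed if their 10 leading genes held a marker of another class and none of their own. These thresholds were chosen with the clusters already known.

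Named genes were the members, 6 feedback genes, up to 3 called genes without overlap per list, direction and comparison, with Rasgrp1 added after its values were seen, and the genes most like each member. The members and lists were chosen with earlier results of these data known.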

Additional observations from a re-analysis of the deposited data

Results flagged for a closer look

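The effect of IL-21 differed between times for Dusp19 and Ier3, by edgeR's test of the difference in the time course. For Dusp19 the log2 fold change of IL-21 was higher at 72 h than at 6 h by 2.25 (edgeR adjusted p = 0.0276, standard error 0.50), with the IL-21 libraries below the others at 6 h and above them at 72 h. For Ier3 the effect at 72 h differed from that at 24 h (adjusted p = 0.00812 from edgeR) and from that at 6 h (adjusted p = 0.0364 from edgeR). Both Ier3 results rest on 0 counts in the 72 h libraries without IL-21. No member was called in these tests with the RPKM filter.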

How the results depend on the processing

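Of 649 recalculations of single gene comparisons, 519 kept their direction and side of the threshold, 94 lost their call, 17 gained one and 19 reversed. These pool the tested members with the called genes of the pathway lists. Of the members only Dusp2 in IL21_iSTAT3 against ctrl was called. Only called results can lose a call, so the 94 fell on that comparison and on the called list genes. The share kept therefore does not describe how stable those calls are. With groups of 2, leaving out a library leaves 1, assumed to vary like the others. The number of members called changed as follows, beside the genes called of all genes tested. Without a filter on low values, edgeR called 1 from gd6.5 to gd8.5 (Dusp5; 452 of 23601), 1 in trNK-D against trNK-V (Dusp4; 471 of 26220), 4 in trNK-T against trNK-V (Dusp1, Dusp4, Dusp5, Dusp10; 2022), 1 in trNK-T against trNK-D (Dusp1; 587), 2 in IL21_iSTAT3 against IL21 (Dusp1, Dusp4; 461 of 21257), 3 against ctrl (Dusp1, Dusp2, Dusp4; 653), and Dusp1 alone, 1 each, for IL-21 at 72 h (1518 of 26386) and from 24 to 72 h without IL-21 (1829). Each Dusp4 call was higher against a group with 0 counts in both libraries, while the other members called in the subsets were lower. With the filter, 4504 genes were tested in gestation, 4683 in the subsets and 4158 in the inhibitor culture. DESeq2 called 1 from gd6.5 to gd8.5 (221 genes) and 2 each in IL21_iSTAT3 against IL21 (445) and ctrl (583), limma-voom 1 in trNK-T against trNK-V (986) and 2 in IL21_iSTAT3 against ctrl (270), and a fit of the compared groups alone 1 from gd6.5 to gd8.5 (249) and 2 in IL21_iSTAT3 against ctrl (223). FilterByExpr gave 0 in the last comparison (21 of 13647). Fits with a library left out have a group of 1 library, so calls in them are not counted here. Those that differed from the main fit were of Dusp1 in trNK-T against trNK-V and trNK-D, without trNK-T replicate 1, and of Dusp2 in IL21_iSTAT3 against ctrl. The correlation of the deviations of same-numbered libraries ranged from -0.308 to 0.104 in gestation, -0.0139 to 0.41 in the subsets, -0.502 to 0.596 in the inhibitor culture and -0.391 to 0.467 in the time course, so in no experiment did every pair of groups deviate together and the numbers were not taken as pairs. A replicate block gave 1 in trNK-T against trNK-V (Dusp5; 1049 genes) and 0 in IL21_iSTAT3 against ctrl (55). The causes of these changes were not tested. The log2 fold change of Dusp2 against virgin ranged from -3.22 to -2.88 at gd6.5 and from -3.25 to -2.76 at gd8.5. Reversed log2 fold changes, all of comparisons not called, were 0.13 for Dusp1 and -0.11 for Dusp2 from gd6.5 to gd8.5 without gd6.5 replicate 2, -0.21 for Dusp2 without gd8.5 replicate 1, 0.0057 for Dusp6 in trNK-D against trNK-V without trNK-D replicate 2, 0.13 for Dusp2 and 0.031 for Dusp5 in trNK-T against trNK-D without trNK-T replicate 2, and 0.42 for Dusp5 and 0.050 for Dusp6 without trNK-D replicate 1. In IL21 against ctrl they were -0.12 for Dusp1 without ctrl replicate 1, -1.4 without IL21 replicate 2, and 0.12 for Dusp6 without IL21 replicate 1. For Dusp6 they were -0.31 and -0.217 in IL21_iSTAT3 against IL21 without IL21 replicate 1 or IL21_iSTAT3 replicate 1, and 0.21 and 0.18 against ctrl without ctrl replicate 2 or IL21_iSTAT3 replicate 2. For Dusp2 with IL-21 they were 0.22 by limma-voom, 1.25 without 24h replicate 2 and 0.28 without 24h_IL21 replicate 2 at 24 h, and 0.54 at 72 h without 72h replicate 1. Over the left-out libraries, in the order of these comparisons, the values at the other end of the range were -0.58 for Dusp1 and 0.28 for Dusp2 from gd6.5 to gd8.5, -0.77 for Dusp6 in trNK-D against trNK-V, -0.68 for Dusp2, -0.84 for Dusp5 and -0.74 for Dusp6 in trNK-T against trNK-D, 2.28 for Dusp1 and -1.50 for Dusp6 in IL21 against ctrl, 1.28 and -0.68 for Dusp6 in IL21_iSTAT3 against IL21 and ctrl, and -0.69 and -0.64 for Dusp2 with IL-21 at 24 and 72 h. In trNK-like cells Dusp2 was at 725 CPM with limits read as UMIs, 703 with no upper limit, 660 at a resolution of 0.4 and 729 with cluster 7 counted in, which was chosen after seeing the data. Without the filter, the tests of the IL-21 effect between times called Dusp1 for 72 h against 24 h (840 of 26386 genes) and against 6 h (873). Dusp1 had 0 counts in both 72 h libraries without IL-21 and 0 and 209 counts in those with it, so these calls rest on 1 library. The unfiltered calls of Dusp1 for IL-21 at 72 h and from 24 to 72 h without IL-21 rest on the same 0 counts.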
